A study of Mus musculus with 270 samples.

Results

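The kidney was compared between male wild-type C57BL/6J mice of 14 months (M, n = 9) and of 8 M (n = 8), 17 of the 45 kidney libraries and of the 270 libraries of the series. The mice carried no transgene and received no treatment, and all came from 1 cohort of the same supplier. The series sampled 6 organs of the same 45 mice by bulk RNA sequencing, from young adults of 3 M to old mice of 26 M. Values are normalized read counts, and each kidney column is 1 mouse. Genes that reached 10 normalized counts in 5 or more of the 45 kidney columns were tested, which kept 16839 of 51810. Differences are on the scale of log2(normalized count + 1), 14 M minus 8 M, and a gene was called at an adjusted p of at most 0.05 from limma.

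The kidney filters blood in glomeruli, where podocytes and capillaries form the filter, and the proximal tubule then takes back sugars, amino acids, phosphate and filtered protein. Proximal tubule cells do this with transporters at their surface and with a dense endocytic system that carries receptors and cargo through endosomes and back to the membrane. The loop of Henle, the distal tubule and the collecting duct adjust salt and water, and most of the ATP comes from mitochondrial oxidation. With age, kidneys of mice are known for immune cell entry, matrix deposition and tubule injury.

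The libraries were kidney by their markers, but several also held transcripts of other tissues. The 38 proximal tubule markers took 2.46% to 5.75% of the reads at 8 M and 2.66% to 5.21% at 14 M. Depth was 5246400 to 28477006 reads at 8 M and 3809071 to 8878724 at 14 M, and the means did not differ beyond the spread between mice (exact permutation test, p = 0.278, two-sided). The 7 brain markers summed to 382 to 43372 normalized counts at 8 M (median 1225) and to 309.5 to 23724 at 14 M (median 452), with *Gfap* at 0 in every one of the 17 libraries. *Snap25*, a synaptic vesicle fusion protein of neurons, had 12485 counts in mouse c2295 of 8 M, 6688 in mouse c2600 of 14 M and 3824 in mouse c3662 of 8 M, against 56.1 in mouse c636 of 14 M. Of the 17, these 3 mice were also the ones with a score beyond 100 on the first principal component of the kidney libraries, which held 41.1% of the variance.

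Column names of 2 mice of 8 M, c1383 and c3662, end in a letter b that is not explained, and no column of 14 M does. Both held transcripts of heart, skeletal muscle and lung far above the other libraries of 8 and 14 M. *Myh6*, the heart myosin chain, had 516 and 460 counts in them and 1.00 to 22.4 in the other 15, and *Myh4*, a fast muscle myosin, had 213 and 181 against 0 to 7.46. The 8 cardiomyocyte markers summed to 983 to 1388 counts in all 7 kidney libraries with the letter, whatever the age, and to 9.63 to 115 in the 38 without it. *Actc1* was at 0 in all 17 libraries. The 7 lung markers summed to 101 in c1383 and 84.5 in c3662. They summed to 3.94 to 20.3 in the other libraries of 8 M and 2.48 to 13.1 at 14 M. Over all ages the range was 84.5 to 481 with the letter and 2.48 to 173 without it.

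**Figure D1:**
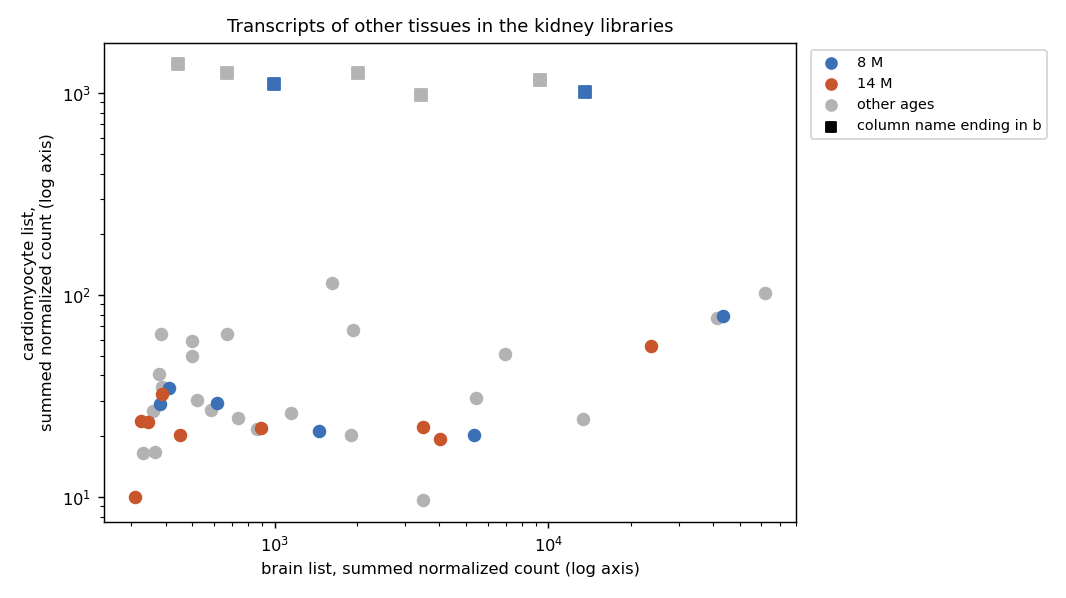
Summed normalized counts of the brain list (horizontal log axis) and of the cardiomyocyte list (vertical log axis) in each of the 45 kidney libraries, with 8 M in blue, 14 M in orange, other ages in grey and squares for column names ending in b. The 7 squares lie between 983 and 1388 on the cardiomyocyte list, above every other library, while the brain list spread over both kinds of column.

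Between 14 and 8 M, 109 genes (0.647% of those tested) differed, 97 of them (0.576%) higher and 12 (0.0713%) lower at 14 M. The higher genes rose by 1.36 to 4.08 times (median 1.70), and the lower genes fell 1.74 to 3.84 times (median 2.14). Without adjustment, 2583 genes had a p under 0.05, and the median difference of all tested genes was -0.05. The number of calls depended on which single mouse was left out. Without mouse c3662 or without mouse c1383, the libraries with heart transcripts, 0 genes passed in limma. At an unadjusted p under 0.05 these fits had 2041 and 2101 genes. Without mouse c2600 of 14 M, which held brain transcripts, 646 higher and 307 lower genes passed. Without all 7 kidney libraries with the letter b, an alternative added after seeing the data, 0 genes passed in limma, with 1587 at an unadjusted p under 0.05. *Ctnnb1* had a difference of 1.30 without these 7 libraries and 1.58 with them, *Ap1g1* 0.90 and 0.95, and *Pip4k2c* 0.80 and 0.90. Without them the adjusted p was 0.305 for each (limma). The change in size over all 109 genes was not summarized. Leaving out other single mice, which lack the letter b, gave 7 (without c3840) to 398 genes (without c1358). The number was 8 without c636, 14 without c1457 and 16 without c847. With both the brain list and the letter b in the model, an alternative chosen after seeing the data, 143 genes passed, 87 of them among the 109.

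The genes were called for their difference between the ages, so the separation of their values describes the call and is no further evidence. Mice c2600 and c568 of 14 M lay nearest to the 8 M group. For 84 of the 97 higher genes, at least 6 of the 9 mice of 14 M were above every mouse of 8 M, and this held for at least 7 mice in 66 genes. Over all tested genes, 4.74% and 2.51% met these limits. Mouse c2600 was the lowest of the 14 M group for 80 of the 97 genes and mouse c568 for 13. Mouse c1358 was the highest of the 8 M group for 50 and mouse c2295 for 24. All 12 lower genes had at least 6 mice of 14 M below every mouse of 8 M, as did 3.84% of all tested genes. Groups without any overlap were rare: 3 of all tested genes (0.0178%) were higher in every mouse of 14 M, and 6 (0.0356%) lower. *Brox* was the one called gene among these 9.

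**Figure D2:**
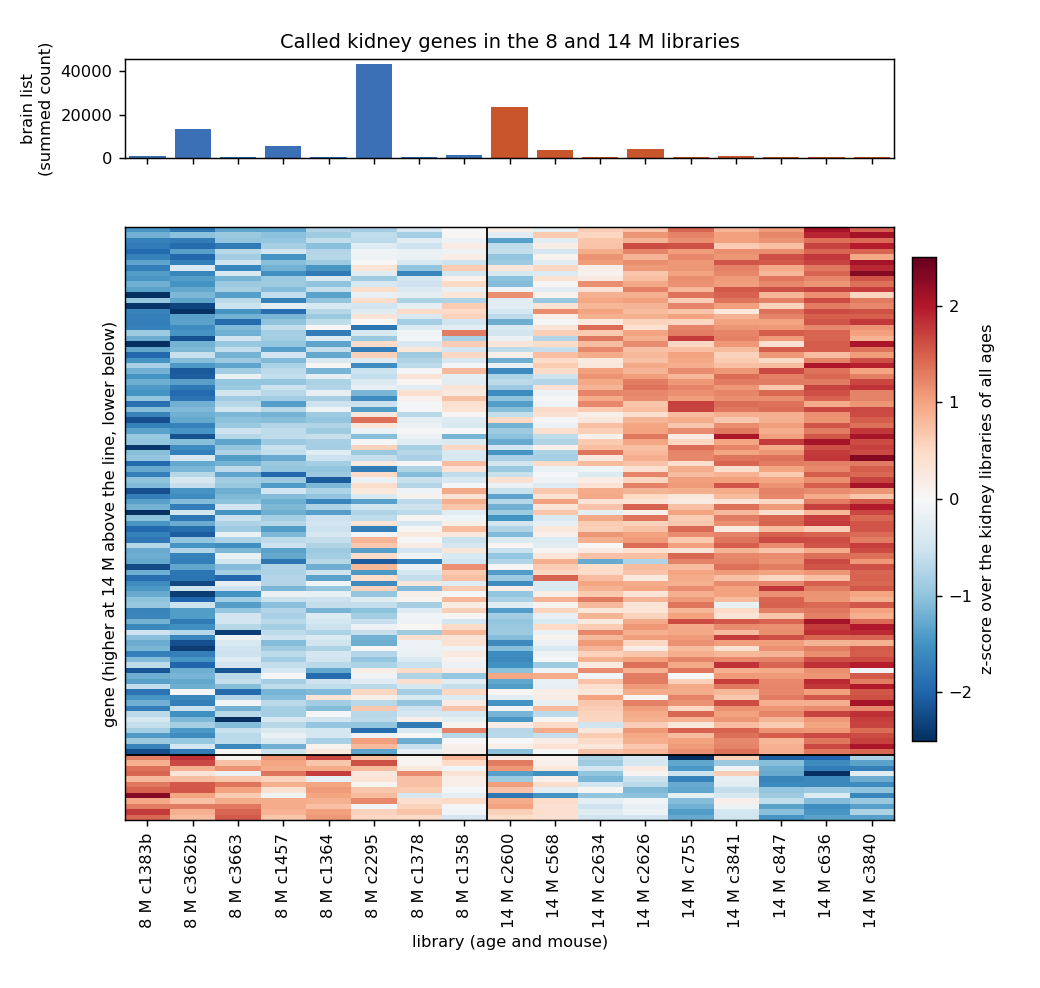
z-scores, over the 45 kidney libraries, of the 97 genes called higher and the 12 called lower (rows) in the 17 libraries of 8 and 14 M (columns, ordered within an age by the mean z-score of the higher genes), with the summed normalized counts of the brain list as bars above. Mouse c2600 of 14 M, with 23724 counts of the brain list, resembled the 8 M libraries, and the 2 libraries with the letter b had the lowest values of the higher genes.

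*Ctnnb1*, which encodes β-catenin, a protein of adherens junctions and the effector of Wnt signals (chr9:120929216-120960507, GRCm38, plus strand), had the largest difference among the 10 higher genes with the smallest p. Its normalized counts were 113 to 350.0 at 8 M (median 218) and 147 to 1057 at 14 M (median 795). It was 2.99 times higher at 14 M, a log2 difference of 1.58 ± 0.30 (SE, adjusted p = 0.0116). Of the 9 mice of 14 M, 7 were above every mouse of 8 M, and mice c568 and c2600 were within the 8 M range.

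*Crbn* encodes cereblon, the substrate receptor of a cullin ubiquitin ligase (chr6:106780201-106800077, minus strand). Counts were 62.9 to 238 at 8 M (median 167) and 166 to 713 at 14 M (median 579), a difference of 1.56 ± 0.29 with an adjusted p of 0.0116. Again 7 of 9 mice of 14 M lay above all of 8 M, and the same 2 did not.

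The smallest p belonged to *Pip4k2c* (chr10:127197067-127211585, minus strand), a lipid kinase of the phosphoinositide pathway. It had 70.9 to 130.1 counts at 8 M (median 90.6) and 119 to 257 at 14 M (median 172), 1.86 times more (0.90 ± 0.17, adjusted p = 0.0116). Of the 9 mice of 14 M, 8 exceeded all mice of 8 M, so the groups overlapped by mouse c568 only.

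Several of the leading genes act on membranes inside the cell. *Ap1g1*, a subunit of the AP-1 clathrin adaptor (chr8:109778554-109864204, plus strand), had 241 to 372 counts at 8 M (median 267) and 336 to 772 at 14 M (median 544), a rise of 0.95 ± 0.18 (adjusted p = 0.0116). Only mouse c2600 of 14 M was within the 8 M range. *Ap1g1* was also the 1 gene that passed when the 17 libraries were fitted without the other ages (adjusted p = 0.0453).

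*Atp6v0a2*, a subunit of the proton pump of endosomes and Golgi, had 112 to 202 counts at 8 M and 160.4 to 325 at 14 M, with medians of 148 and 234 and a difference of 0.76 ± 0.14. *Ndst1*, which sulfates heparan sulfate in the Golgi, had medians of 262 and 642, with ranges of 205 to 416 and 248 to 813 and a difference of 1.02 ± 0.21. In both, mouse c2600 was the lowest at 14 M and within the 8 M range.

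*Cnot1*, the scaffold of the deadenylase complex that shortens mRNA tails, had 343 to 832 counts at 8 M and 701 to 1340 at 14 M, with medians of 436 and 984 (0.95 ± 0.19). *Atm*, the kinase that answers DNA double-strand breaks, had 81.8 to 131 and 127 to 302, with medians of 89.9 and 188 (0.87 ± 0.17). *Stag2*, a cohesin subunit, had medians of 720.0 and 1195 (0.66 ± 0.13). For each of *Atm*, *Stag2* and *Nrd1*, a metalloprotease, 7 of 9 mice of 14 M were above all mice of 8 M, and for *Cnot1* 6 were. *Nrd1* had medians of 1536 and 2368, 0.60 ± 0.12. The adjusted p of these 4 genes ranged from 0.0139 to 0.0168.

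*Brox*, which binds the ESCRT-III machinery of endosomes and the nuclear envelope (chr1:183276352-183297269, minus strand), had 108 to 197 counts at 8 M and 199 to 350.4 at 14 M. The medians were 166 and 281, and every mouse of 14 M was above every mouse of 8 M (0.70 ± 0.16, adjusted p = 0.0348). *Mettl4* and *Cntd1*, the other 2 tested genes with higher values in every mouse of 14 M, had adjusted p of 0.0726 and 0.0749.

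**Figure D3:**
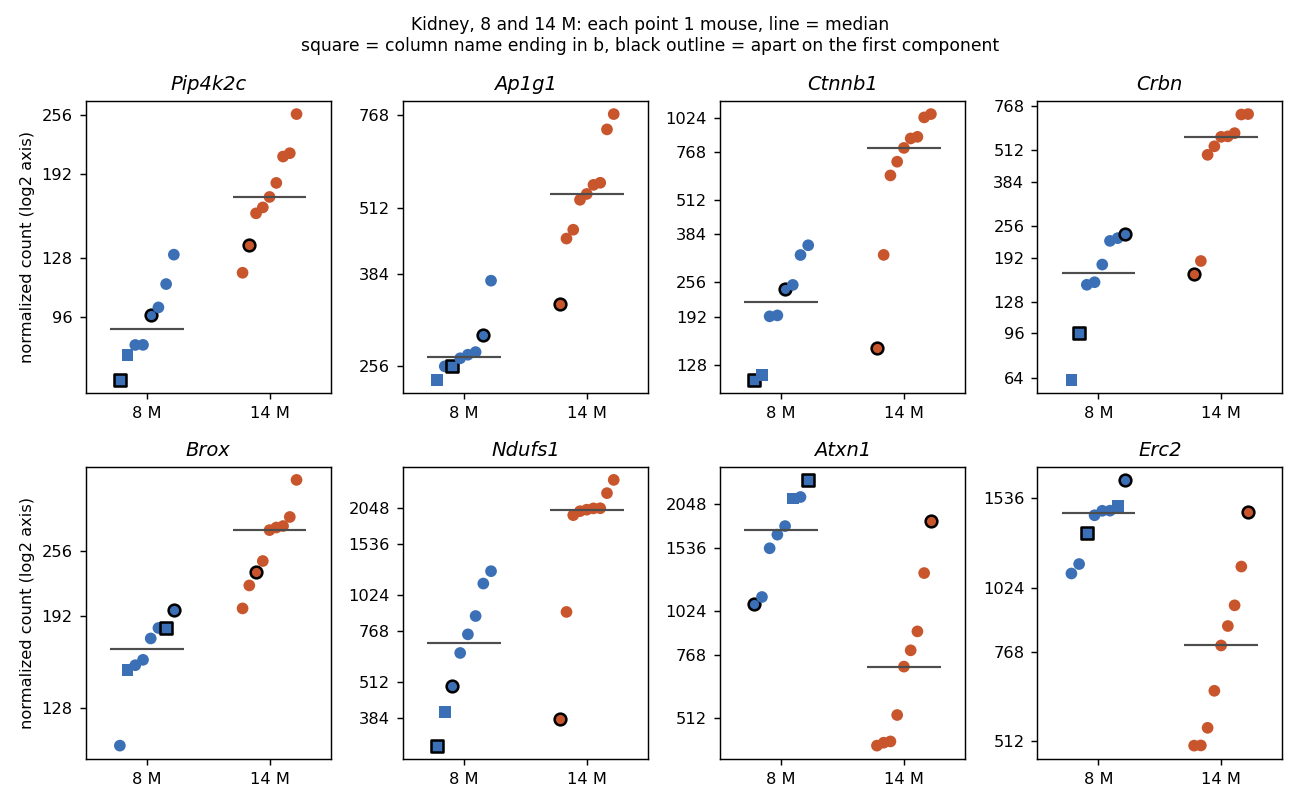
Normalized counts (log2 axis) of 8 genes in each mouse of 8 M (blue, n = 8) and 14 M (orange, n = 9), sorted by level within a group, with the median as a line, squares for column names ending in b and black outlines for mice c2295, c3662 and c2600. *Brox* did not overlap between the ages, and in the other genes shown 1 or 2 mice of 14 M reached the 8 M range.

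The 6 called genes with the largest differences were mostly weakly expressed. *Pzp*, a protease inhibitor of the α2-macroglobulin family, had 19.1 to 149 counts at 8 M and 33.6 to 564 at 14 M, with medians of 64.4 and 287 (2.03 ± 0.50, adjusted p = 0.0442). *Krt80*, an epithelial keratin, had 3.94 to 17.6 and 13.1 to 49.5, with medians of 9.07 and 39.8, and 8 of 9 mice of 14 M were above all of 8 M (1.82 ± 0.38, adjusted p = 0.02).

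*Ak3l2-ps* (1.97 ± 0.50), *Gm20056* (1.89 ± 0.48) and *Gm4875* (1.89 ± 0.48) are annotated as processed pseudogenes. Of the 97 higher genes 6 are pseudogenes and 91 protein coding. Reads of a pseudogene can come from its parent gene, so their values are uncertain. *Gm20056* and *Gm4875* each had a library of 8 M at 0.

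Among the lower genes, *Hoxa2*, a homeobox factor of embryonic patterning (chr6:52162417-52164831, minus strand), had 8.46 to 32.0 counts at 8 M (median 17.2) and 0 to 12.7 at 14 M (median 4.13). It fell by 1.94 ± 0.41 on the log2 scale, with an adjusted p of 0.0196, and 6 of 9 mice of 14 M were below all of 8 M. *Lrrc3b*, a leucine-rich repeat membrane protein, had medians of 38.6 and 11.0 and a difference of -1.54 ± 0.35. Both were low in all libraries, where few reads stand behind a count.

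Several of the lower genes span long stretches of the genome. *Atxn1*, a transcriptional repressor whose repeat expansion causes an ataxia (chr13:45549755-45965008, minus strand, 415 kb), had 1067 to 2386 counts at 8 M and 429 to 1830 at 14 M, with medians of 1723 and 714 (-1.21 ± 0.29, adjusted p = 0.035). *Erc2*, an active zone protein of synapses (chr14:27622428-28478537, plus strand, 856 kb), had 1093 to 1670 and 502 to 1447, -0.83 ± 0.21. In both, 7 mice of 14 M were below all mice of 8 M, and mouse c2600 was the highest at 14 M.

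*Wdr17*, a WD-repeat protein (258 kb), had medians of 632 and 268 (-1.19 ± 0.28). *Mthfs*, which handles folate (167 kb), had 63.0 to 96.3 and 33.5 to 72.0 counts, with 8 of 9 mice of 14 M below all of 8 M (-0.88 ± 0.21, adjusted p = 0.035). *Fam160b2* spans 16.5 kb and had medians of 625 and 318 (-0.80 ± 0.19). The noncoding *4930506C21Rik* (-1.40 ± 0.33) lies opposite *Mpc1*, and the feature ENSMUSG00000097243 (-1.08 ± 0.27) had no match in the annotation used. Of the other lower genes, *2210408F21Rik* (-0.81 ± 0.21) and *2010111I01Rik* (-0.82 ± 0.21) each had 7 mice of 14 M below all of 8 M.

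The median genomic span was 167 kb for the 11 lower genes found in the annotation, 39.4 kb for the 97 higher genes and 24.3 kb for all tested genes. Spans over 100 kb belonged to 7 of the 11 lower genes, 7 of the 97 higher and 15.1% of all tested. The median of the longest transcript was 3971, 4622 and 3159 bases in the same order, and its GC content 47.2%, 46.6% and 49.2%. When length, GC content and span were regressed out of each library, an alternative chosen after seeing the data, *Erc2* had a difference of -0.01 and did not pass (adjusted p = 0.990), and *Atxn1* of -0.66 (adjusted p = 0.399). *Ctnnb1* kept 1.54 (adjusted p = 0.0209) and *Hoxa2* -1.99 (adjusted p = 0.0416). The part of these gene features in the age difference was not tested further.

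The leading genes raised the question of how their neighbours in the same machinery stood, so lists of these were written around the called genes after the values had been seen. Their counts follow from that choice and are a description only, beside 0.576% of all tested genes called higher and 0.0713% called lower. Of 22 tested genes of endosomal sorting and ESCRT, 5 were higher (*Stam2*, *Ist1*, *Vps4a*, *Brox* and *Usp8*) and 0 lower, with a list median of 0.29 against -0.05 for all tested genes. *Vps4a*, the ATPase that takes ESCRT-III filaments apart, had medians of 495 and 1095 (1.05 ± 0.24, adjusted p = 0.0348). *Usp8*, a deubiquitinase of endosomes, had medians of 13.5 and 53.9 (1.72 ± 0.44, adjusted p = 0.0491).

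Of 17 genes of retromer, the WASH complex and sorting nexins, 4 were higher (*Vps35*, *Snx13*, *Washc2* and *Rab7*) and 0 lower, with a median of 0.39. This list and the next were also written around called genes, beside 0.576% of all tested genes called higher and 0.0713% called lower. *Vps35*, the core of retromer, had medians of 1193 and 1917 (0.70 ± 0.17), and *Rab7*, the late endosome GTPase, of 219 and 386 (0.67 ± 0.17). Of 20 coat and adaptor genes, *Copa*, *Ap1g1* and *Clint1* were higher and 0 lower, with a median of 0.25. *Copa*, of the COPI coat, had medians of 1212 and 2261 (0.71 ± 0.18, adjusted p = 0.0469).

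The next 3 lists were also written around called genes, beside 0.576% of all tested genes called higher. Deubiquitinases had 5 of 27 tested members higher, with *Usp9x* at medians of 707 and 1684 (1.02 ± 0.21, adjusted p = 0.0168). DEAD and DEAH box helicases, which unwind RNA, had 3 of 20 higher. *Ddx3x*, a translation helicase on the X chromosome, had 1615 to 3391 counts at 8 M and 1880 to 4680 at 14 M (0.81 ± 0.16, adjusted p = 0.0168). Of 21 genes of genome maintenance 5 were higher (*Atm*, *Topbp1*, *Parp1*, *Orc2* and *Stag2*). *Parp1*, which marks DNA breaks with poly-ADP-ribose, had medians of 294 and 550.0 (0.71 ± 0.16, adjusted p = 0.0348). None of the 3 lists had a lower member in limma, beside 12 (0.0713%) of all tested genes. At an unadjusted p of at most 0.05, 0 members were lower, beside 1153 of all 16839 tested genes. These counts also follow from the choice of the lists.

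Another 42 lists covered kidney cells, processes of ageing, and cells of other tissues. They held 606 tested genes, of which limma called 4 (0.66%, against 0.647% of all tested genes). Among the 39 lists with no called gene were those of nephron segments, immune cells, matrix and injury. In the respiratory chain, 1 of 28 tested genes passed. This was *Ndufs1*, the largest subunit of complex I, with 309 to 1240 counts at 8 M and 382 to 2565 at 14 M, medians of 698 and 2023 and a difference of 1.27 ± 0.29 (adjusted p = 0.0348). Of the 9 mice of 14 M, 7 were above all of 8 M. The list median was 0.11, with 17 members above and 11 below 0.

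Of 91 tested members of SenMyo, a published list of senescence-associated genes, *Ctnnb1* and *Il6st* were higher and 0 lower, with a median of 0.09. *Il6st*, the gp130 receptor chain of the interleukin-6 family, had 545 to 1339 and 634 to 1787 counts, with medians of 784 and 1514 (0.76 ± 0.18, adjusted p = 0.0375). Neither gene is a secreted factor. *Ccnd1*, cyclin D1, which drives entry into the cell cycle, was the 1 called gene of 11 in the list of cell cycle arrest, with medians of 224 and 473 and 4 of 9 mice of 14 M above all of 8 M (0.94 ± 0.23, adjusted p = 0.0429).

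*Cdkn1a*, the p21 cell cycle inhibitor, had 40.1 to 169 counts at 8 M and 38.1 to 155 at 14 M, with medians of 90.0 and 76.6 and a difference of -0.03 ± 0.31 (adjusted p = 0.976). *Cdkn2a*, which encodes p16, had at most 6.91 counts in the 17 libraries and was not tested. The DNA replication and mitosis list had 0 of 26 genes called by limma and a median of 0.36, with 20 members above 0. *Mcm7*, a subunit of the replicative helicase, had medians of 88.5 and 141 (0.56 ± 0.17, adjusted p = 0.0971), and 4 members had an unadjusted p under 0.05, all positive. Of all 16839 tested genes, 1430 were higher and 1153 lower at this limit, and 7502 had a difference above 0.

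Among nephron segments, the proximal tubule list had 0 of 37 genes called in limma, 6 at an unadjusted p of at most 0.05, all positive, and a median of 0.22. Of all 16839 tested genes, 1430 were higher and 1153 lower at this limit. In the list, 28 members lay above 0 and 9 below. The median share of reads of the 38 markers was 4.99% at 8 M and 4.73% at 14 M. *Cubn*, the cubilin receptor for filtered protein, had medians of 460 and 1008 (1.05 ± 0.35, adjusted p = 0.122), and *Slc3a1*, of the cystine transporter, of 1297 and 2537 (0.87 ± 0.23, adjusted p = 0.0578). *Slc34a1*, the phosphate transporter, had 5768 to 26094 counts at 8 M and 12447 to 25324 at 14 M (0.17 ± 0.27, adjusted p = 0.787). The lowest *Slc34a1* value of 8 M was in mouse c2295, which had the most brain transcripts of the 17. In bulk tissue, fewer cells of a type and less RNA per cell cannot be told apart.

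*Umod*, uromodulin, the urinary protein made by the loop of Henle, had 221 to 2520 counts at 8 M (median 1720) and 308 to 6782 at 14 M (median 4756). The difference of 1.71 ± 0.56 did not pass (adjusted p = 0.115), although 7 of 9 mice of 14 M were above all of 8 M. Mouse c2600 had the 308 counts. It passed under 2 of 32 alternatives, with adjusted p from 0.0101 to 0.465.

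*Kl*, the klotho coreceptor for the phosphate hormone FGF23, had 3512 to 6919 and 3191 to 6255 counts (0.23 ± 0.21, adjusted p = 0.637). *Ren1*, renin, had medians of 76.9 and 78.2 (-0.06 ± 0.29, adjusted p = 0.938), and *Ppargc1a*, a coactivator of mitochondrial genes, of 1504 and 1483 (-0.04 ± 0.12, adjusted p = 0.891). The ages overlapped widely in all 3.

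In the podocyte list, 4 of 10 members lay above 0 and 6 below. *Magi2*, a scaffold of the podocyte junction, had medians of 3300 and 1535 (-1.09 ± 0.31, adjusted p = 0.0749) and did not pass the threshold, and it was the lowest of the list. The podocyte list median was -0.08 and that of endothelium -0.06, with 0 called genes by limma in both. At an unadjusted p of at most 0.05, 1 of 10 podocyte genes was positive and 1 negative, and 2 of 14 endothelial genes were negative. Of all 16839 tested genes, 1430 were positive and 1153 negative at this limit. The highest difference in the podocyte list was 0.96.

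**Figure D4:**
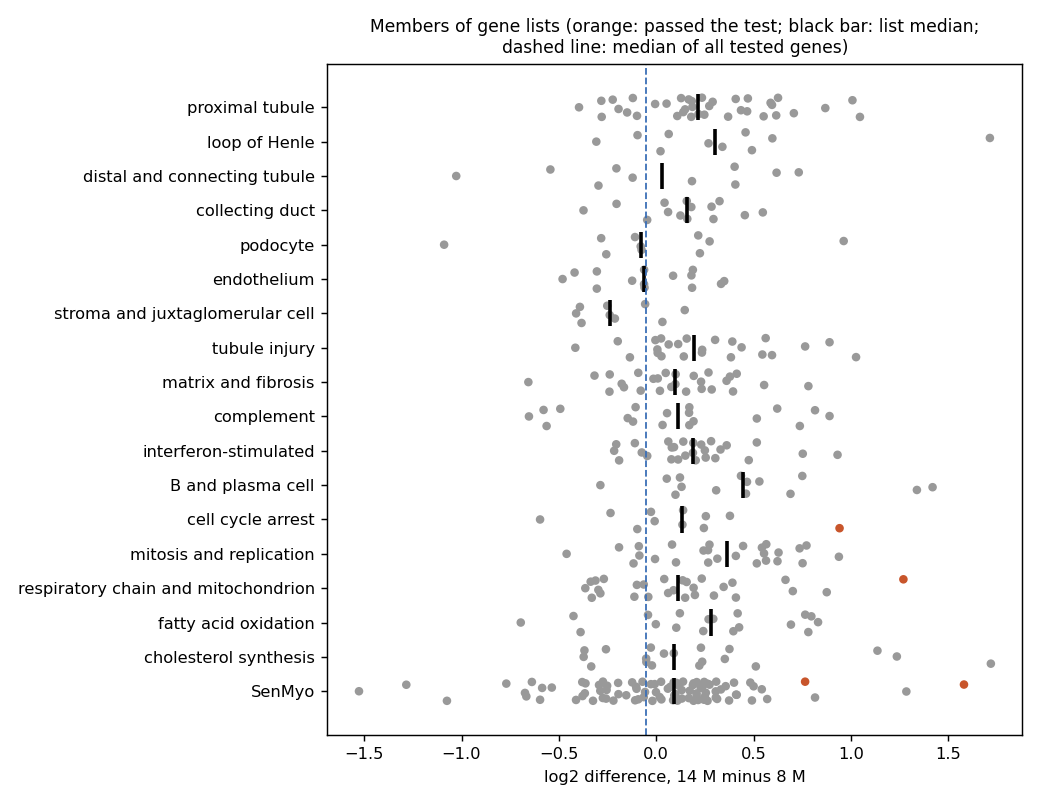
Log2 differences (14 M minus 8 M) of the tested members of 18 gene lists, 1 point per gene, with called genes in orange, the list median as a black bar and the median of all tested genes (-0.05) as a dashed line. *Ccnd1*, *Ndufs1*, *Ctnnb1* and *Il6st* are the called members, and most lists have medians within 0.30 of 0.

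Markers of tubule injury and inflammation spread widely at 14 M. *Havcr1*, the injury marker KIM-1, had 15.8 to 157 counts at 8 M (median 108) and 62.7 to 761 at 14 M (median 148), 1.03 ± 0.52 with an adjusted p of 0.337. *Lcn2*, a lipocalin released by injured tubules, reached 36.7 at 8 M and 113 at 14 M (0.56 ± 0.50, adjusted p = 0.613). Mouse c3840 was the highest mouse of 14 M for both.

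The same mouse had the highest values of *C3* and *C4b*, complement proteins, of *Col1a1*, a fibrillar collagen, and of the macrophage list. *C3* had 21.0 to 306 and 61.5 to 665 counts (0.82 ± 0.44, adjusted p = 0.373), and *C4b* had 35.3 to 70.9 and 37.2 to 244 (0.52 ± 0.33, adjusted p = 0.470). *Col1a1* had medians of 212 and 178 (0.05 ± 0.23, adjusted p = 0.933). In the matrix list, *Col4a1* of basement membranes had medians of 499 and 873 (0.78 ± 0.21, adjusted p = 0.0656). *Ccn2*, a matrix growth factor, had 570.4 and 388 (-0.66 ± 0.17) and lay just outside the threshold with an adjusted p of 0.0502, beside *D5Ertd579e*, *Supt6* and *Ak3l2-ps* just inside at 0.0496.

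*Ighm*, the heavy chain of IgM, had 88.8 to 246 counts at 8 M and 67.8 to 1449 at 14 M, with medians of 127 and 418 (1.42 ± 0.56, adjusted p = 0.203). Of the mice of 14 M, 6 were above and 1 below all of 8 M. *Jchain*, which joins secreted IgM and IgA, had 193 to 570 and 165 to 1177 (0.13 ± 0.44, adjusted p = 0.908), and mouse c636 of 14 M was the highest for both. *Igkc*, the light chain, was listed at 0 in all libraries, as were the 37 mitochondrially encoded genes, so nothing is said of their levels.

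Across the 6 ages, the genes called higher at 14 M did not follow the order of age. The median of their mean z-score was -1.12 in mice of 3 M and 0.26 in those of 5 M. It was -0.81 in the 8 M group and 0.99 in the 14 M group, and then 0.48 and 0.28 in the groups of 20 and 26 M. At 8 M it ranged from -1.43 to 0.10, with the 2 lowest values in the libraries with the letter b, and from -0.92 without them. At 14 M it ranged from -0.71 in mouse c2600 to 1.41 and 1.501 in mice c636 and c3840, with mouse c568 at 0.08. At 3 M it ranged from -1.41 to -1.03 in the 3 libraries with the letter b and from -1.28 to -0.63 in the other 4. The letter b libraries of the other ages were not low, with 0.64 in that of 5 M and 0.28, the median of its age, in that of 26 M. *Ctnnb1* had 150.3 ± 40.1 counts (SD) in the 7 mice of 3 M, 552 ± 156 in the 9 of 5 M and 223 ± 86.4 in the 8 of 8 M. Its counts were 714 ± 306 in the 9 mice of 14 M, 638 ± 275 in the 7 of 20 M and 572 ± 113 in the 5 of 26 M. The levels of 5, 14, 20 and 26 M differed by less than the SD at 14 M, and those of 3 and 8 M were below all 4. *Atxn1* ran the other way, with 1856 ± 743 counts in mice of 3 M, 787 ± 243 in those of 5 M, then 1725 ± 478 in the 8 M group and 819 ± 475 in the 14 M group. Its 1083 ± 801 and 999 ± 415 counts in the 2 oldest groups were within the spread of 14 M.

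**Figure D5:**
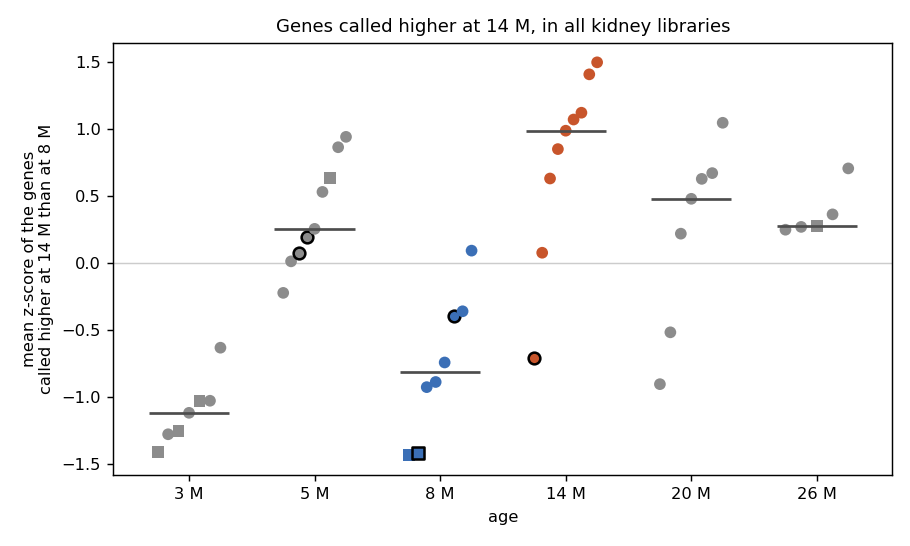
Mean z-score of the 97 genes called higher at 14 M than at 8 M in each of the 45 kidney libraries by age, with the median as a line, squares for column names ending in b and black outlines for scores beyond 100 on the first principal component. The genes were chosen for the difference between 8 and 14 M, the medians of 3 and 8 M are -1.12 and -0.81, and those of the other ages lie between 0.26 and 0.99.

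In the other organs of the same mice, the median differences of these genes were nearer 0 than in kidney. The organ tables were normalized apart, and none of the differences was tested between organs. In lung, most columns of 14 M but few of 8 M end in the letter b, and heart has such columns at both ages. The part of the letter in these values was not tested. For the 97 genes called higher in kidney, the median log2 difference between 14 and 8 M was 0.76 in kidney. It was 0.18 in heart, 0.01 in skeletal muscle, -0.12 in lung and -0.04 in testis. The genes were chosen for their kidney difference. The larger kidney median follows from that choice and says nothing of how particular the change is to kidney. A higher mean at 14 M was seen for 90 of the 97 in heart, 55 in skeletal muscle, 38 in lung and 33 in testis. The shares over all genes of these organs were not computed, so these counts are a description only. Some genes in lung differed by more than in kidney and in the same direction. These included *Atp6v0a2* by 0.81, *Itgb8* by 1.35 against 0.77 in kidney, and *Hoxa2* by -2.46. Others went against their kidney direction in lung. Of the higher genes, *Krt80* had -2.33, *Tada2b* -2.15 and *Ctnnb1* -1.17, and the lower gene *Atxn1* had 1.05. These lung examples were picked from many genes, their differences were not tested, and several had a wide spread between mice. In lung at 8 and 14 M, *Hoxa2* had 23.6 ± 12.9 and 7.96 ± 15.6 counts (SD), and *Itgb8* 74.3 ± 88.2 and 150 ± 121. *Krt80* had 28.4 ± 29.1 and 9.06 ± 19.0 there, and *Tada2b* 46.8 ± 36.4 and 17.5 ± 23.8. *Ctnnb1* in heart had 413 ± 295 counts (SD) at the younger age and 513 ± 254 at the older, a difference within the SD. *Crbn* in testis had 1056 ± 574 and 935 ± 514, and *Ap1g1* in lung 347 ± 69.9 and 453 ± 113. For the 12 lower genes, the medians were -0.06 in heart, -0.09 in skeletal muscle, -0.01 in lung and -0.06 in testis.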

How the data were processed

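Total RNA of kidneys was made into poly(A)-selected libraries without molecular identifiers and sequenced as single reads. Per the labels and the methods of the study, the authors used bcl2fastq 2.20, adapter trimming, HISAT2 2.1.0 on GRCm38 (mm10) and counting of Ensembl genes in R, and deposited counts divided by DESeq2 size factors, treated here as a signal with known steps. Reads were mapped with forward strand information, while the strand setting of the counting step is not given in the sources used here, so reads of genes on opposite strands (*Crbn* and *Trnt1*, *Brox* and *Aida*, *Ctnnb1* and *Ulk4*, *Vps35* and *Orc6*) may not be separated. Whole reads were recovered by dividing each column by its smallest positive value, and 100% of values were whole within 1e-06. Each library is 1 mouse, so the errors hold animal and technical spread together.

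Values were log2-transformed with a pseudocount of 1 and fitted in limma 3.58.1 (R 4.3.3) over all 45 kidney libraries and 6 ages with a trended variance, and p-values of the contrast of 14 and 8 M were adjusted by Benjamini-Hochberg over 16839 genes. Depth was compared by an exact permutation test. Named were the 10 higher and 10 lower genes with the smallest p, the 6 with the largest difference, called members of the lists and 15 chosen genes, and others were named after their values were seen. Members, the 42 lists and tests were chosen with earlier results of these data known. Alternatives were edgeR 4.0.16, DESeq2 1.42.0, another pseudocount, no filter, quantile normalization, covariates and each mouse left out. Gene positions and features came from GENCODE M21 (GRCm38), which matched 99.8% of tested genes. The fits were tested on simulated data. The liver table was not used here. Values of 2 genes are not reported here.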

Additional observations from a re-analysis of the deposited data

Results flagged for a closer look

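Within-group spread pointed to a few libraries, by a gap between the highest or lowest mouse and the next one that is large for the range of the group. About 1 in 20 groups is expected to show this by chance. Mouse c2600 of 14 M, with 23724 counts of the brain list, was far below the other mice of 14 M for *Il6st* (634 normalized counts), *Ccnd1* (183), *Umod* (308) and *Kl* (3190). Mouse c2295 of 8 M, with 43372 counts of the brain list, was far below the others of 8 M for *Slc34a1* (5770) and *Havcr1* (15.8). The part of the brain transcripts in these values was not tested.

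Mouse c3840 of 14 M was far above the others for *C4b* (244). At 8 M, mouse c1358 was far above for *Ap1g1* (372), mouse c1364 for *Ren1* (128), and mouse c3663 was far below for *Gm4875* (0). The depth of mouse c3662 of 8 M, 28477006 reads, was far above that of the other mice of 8 M. Over all ages, the 7 kidney libraries with the letter b had 10963860 to 28477006 reads and the 38 without it 3809071 to 9010499.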

How the results depend on the processing

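All 109 called genes kept their direction under every alternative, while the number past the threshold moved. The genes were chosen by this difference and the alternatives use libraries of the same mice, so a kept direction is no further evidence. Leaving out 1 mouse gave 0% to 5.66% of tested genes (0.647% with all mice), 0 to 646 higher and 0 to 307 lower, and 0 to 29 of the 41 tested named genes (28 with all mice). The number was 0 without mouse c1383 or c3662 of 8 M, 21, 14 and 17 without c1364, c1457 or c3663 of 8 M, 8, 19, 16, 25, 7 and 19 without c636, c755, c847, c2626, c3840 or c3841 of 14 M, 62 without c2634, 195 without c2295, 229 without c568 and 398 without c1358, and the highest values came without c2600. The percent of tested genes called and the numbers higher, lower and named were 0.0818%, 23, 2 and 12 with no filter, 0.309%, 49, 3 and 16 with quantile normalization, 0.00594%, 1, 0 and 1 in the 2 ages alone, and 0.148%, 23, 2 and 13 with the letter b as a term. DESeq2 called 2.7%, 332 higher and 88 lower, edgeR 98 genes with 3 lower and 18 named, and the fit with sets of mice seen in the heart data 159 genes with 23 lower. Of alternatives chosen after seeing the data, length and GC regressed out gave 0.184%, 26, 5 and 13, with genomic span 0.16%, 25, 2 and 10, and leaving out all libraries with the letter b 0%, 0, 0 and 0 (1587 genes at an unadjusted p under 0.05). The brain list as a covariate gave 1.57%, 197 higher and 67 lower, with the letter b 33 lower, and leaving out c2295, c3662 and c2600 gave 1.89%, 235 higher and 83 lower. Fits with fewer samples or more terms also have fewer degrees of freedom. The cause of the changes in the number of calls was not tested. The share of higher genes among the called was 89.0% in the main analysis, 79.0% by DESeq2, 96.9% by edgeR, 94.2% with quantile normalization, 74.6% with the brain list, 76.9% with the brain list and the letter b, 73.9% without the 3 mice and 67.8% to 100% with single mice left out where any gene passed, lowest without c2600. The depth difference was -3210050 reads, or -0.34 on the log2 scale (exact permutation test, p = 0.318). A pseudocount of 0.1 gave 95 genes and log2 depth as a covariate 100.

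No paired analysis was possible because the ages hold different mice. The 2 libraries with the letter b stand only at 8 M, so the letter and the age cannot be fully told apart, and 1 library per mouse leaves technical and animal spread together.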
